A study of Mus musculus with 11 samples.

Results

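The genes of the ISG15 system and 3 PARP genes induced by interferon, with the PARP9 partner *Dtx3l*, were examined in lacrimal glands of male NOD mice. The members are *Isg15*, *Uba7*, *Ube2l6*, *Herc6*, *Usp18*, *Dtx3l*, *Parp9*, *Parp12* and *Parp14*, listed by gene name for their known function and not by a threshold on their values, and they are 9 of the 19058 genes with counts. NOD mice are an inbred strain in which males develop spontaneous lymphocytic infiltration of the lacrimal glands, and the study asked which genes there need the RNA sensor TLR7 or the type I interferon receptor. RNA from 1 whole lacrimal gland per mouse was sequenced in 3 WT, 5 *Tlr7* KO and 3 *Ifnar1* KO mice, all male and all NOD. The same WT mice served both knockouts, so a comparison of each knockout with WT shares its controls with the other. The *Tlr7* KO line carries a 2 base-pair deletion made by Cas9 in NOD embryos, and the *Ifnar1* KO line is homozygous for the em16 allele. Both are germline knockouts, so every cell of the mouse lacks the gene product and not the gland alone. WT and *Tlr7* KO mice were 20 to 22 weeks old, while the age of the *Ifnar1* KO mice is not given in the sources used here. Per the methods of the study, a further *Ifnar1* KO mouse was set aside because its expression profile and its gland inflammation resembled those of WT. The *Ifnar1* KO group analysed here was therefore chosen in part on an outcome related to these genes, and its distance from WT and its spread do not include that mouse.

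ISG15 is a small protein built like a pair of ubiquitins, and like ubiquitin it is joined to other proteins by a chain of enzymes. UBA7 activates it, UBE2L6 carries it, an E3 ligase, which in the mouse is mainly HERC6, attaches it, and USP18 removes it again. USP18 also binds the type I interferon receptor and dampens its signal. PARP12 and PARP14 add ADP-ribose to proteins, and PARP9 works as a complex with the ubiquitin ligase DTX3L. Type I interferon turns on these genes through ISGF3, a transcription factor complex that holds STAT2 and IRF9 and binds a DNA element called the ISRE.

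The promoter of *Isg15* is shown because it carries the ISRE letters more densely than any other member with a promoter at hand. *Isg15* (ENSMUSG00000035692) lies on the minus strand of chromosome 4 of GRCm38, from 156199424 to 156200818. In the RefSeq promoter sequences on GRCm38.p6, which run from 250 bases before to 50 bases after a gene's start, 6 of the 9 members had an entry, and *Usp18*, *Parp9* and *Parp14* had none. The letters GAAANNGAAA were searched on both strands with overlapping matches allowed. The 150 bases before the *Isg15* start, read on its own strand at chr4:156200819-156200968, are printed here with the matched bases in capitals.

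Isg15 promoter: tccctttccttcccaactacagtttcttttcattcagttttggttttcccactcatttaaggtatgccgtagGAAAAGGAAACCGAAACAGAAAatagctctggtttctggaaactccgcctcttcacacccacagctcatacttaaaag

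The capitals hold 3 overlapping matches, which begin at positions -78, -72 and -66 from the start. Of 32851 promoters in the same collection, 1131 (3.44%) held at least 1 match, and 5 held 3 or more. *Uba7*, *Ube2l6*, *Herc6*, *Dtx3l* and *Parp12* had no match in their window, which says only that these letters are not there. *Dtx3l* and *Parp9* lie head to head on chromosome 16, *Dtx3l* on the minus strand from 35926511 to 35939151 and *Parp9* on the plus strand from 35938470 to 35972605. Their annotated exons share 458 bases at the start sites, and reads there cannot be told apart unless strand was used in counting, which is not given in the sources used here. *Parp14* lies on the same chromosome from 35832874 to 35871544, and its end nearest to *Dtx3l* is 54966 bases away.

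Libraries had 20512315 to 28814250 counts assigned to genes, and values are CPM, counts scaled to library size, after TMM scaling over the 11 mice. TMM corrects for RNA composition, and its factors were 1.43 and 1.48 in WT 1 and WT 3 against 0.688 to 1.10 in the other 9 mice. WT 2 stood apart from the other WT mice, with a summed level of 5 leukocyte genes of 98.5 CPM beside 311 and 271 CPM. In the *Tlr7* KO mice this sum was 37.0 to 104 CPM, with *Tlr7* KO 2 the highest, and in the *Ifnar1* KO mice it was 13.9 to 52.1 CPM. Skeletal muscle genes, which a lacrimal gland should lack, summed to 321 CPM in WT 1, 233 CPM in WT 2, 226 CPM in *Tlr7* KO 4 and 8.67 CPM in *Ifnar1* KO 2, and to 0.211 CPM or less in the others. Genes of the gland epithelium summed to 1023 to 1245 CPM in WT, 1407 to 1486 CPM in *Tlr7* KO and 1434 to 1654 CPM in *Ifnar1* KO. None of these 12 genes was at 0 in any mouse, which is no test of the tissue label, since they are not particular to the lacrimal gland. Against WT, 3 of them were called higher and 3 lower in *Tlr7* KO, and 1 higher and 3 lower in *Ifnar1* KO. *Tlr7* was at 1.52 to 2.94 CPM in WT and 0.494 to 0.950 CPM in *Tlr7* KO glands (log2 fold change -1.62, adjusted p = 0.00365). *Ifnar1* was at 10.5 to 15.1 CPM in WT and 8.34 to 9.63 CPM in *Ifnar1* KO glands (log2 fold change -0.61, adjusted p = 0.0485). Each transcript also fell in the other knockout, *Tlr7* to 0.251 to 0.822 CPM in *Ifnar1* KO (log2 fold change -2.101, adjusted p = 0.0260) and *Ifnar1* to 8.34 to 11.2 CPM in *Tlr7* KO (-0.51, adjusted p = 0.0220). Transcript level is therefore no check of either genotype.

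In *Ifnar1* KO glands 8 of the 9 members fell below WT, by 4.19-fold to 11.4-fold, where 12.4% of all genes tested fell. *Isg15* was the most affected and *Parp12*, at 2.13-fold, was not past the test. This count went to 0 when any of 4 of the 6 mice was left out. In *Tlr7* KO glands the activating enzyme *Uba7* fell 2.35-fold and was the only member past the test, where 17.4% of all genes tested fell, and its call was lost in 9 of 17 alternative settings. *Usp18* and *Parp12* had mean levels at or above those of WT, and neither differed from WT past the test. The knockouts set against each other differed in *Usp18*, *Isg15*, *Herc6* and *Parp12*, each higher in *Tlr7* KO, where 0.926% of all genes were, and the count was 0 to 9 with a mouse left out.

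**Figure D1:**
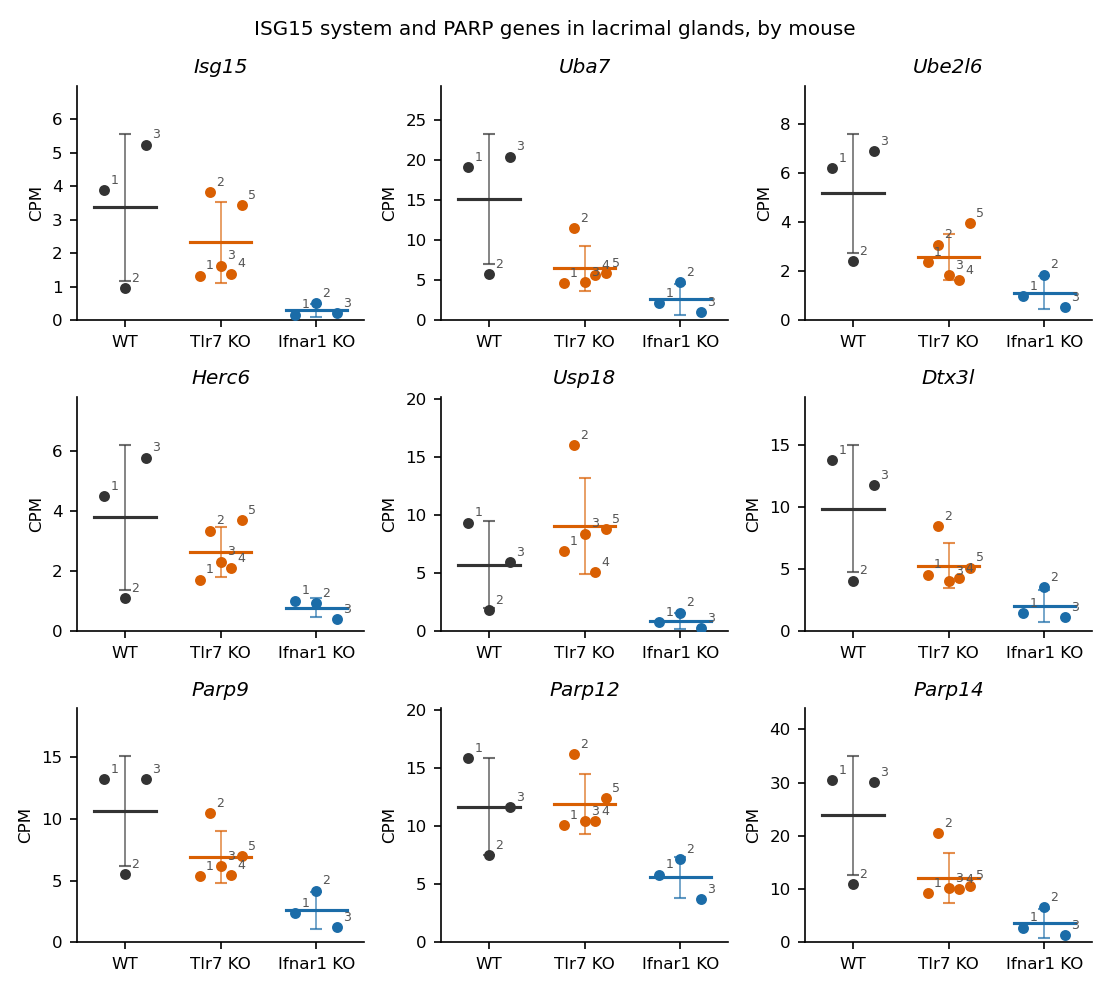
CPM of each of the 9 members in each mouse, 1 point per mouse with its replicate number, grouped as WT (n = 3), Tlr7 KO (n = 5) and Ifnar1 KO (n = 3), with each vertical axis starting at 0. Horizontal lines are group means and error bars are SD, and WT 2 is the lowest WT mouse in all 9 panels while the Ifnar1 KO mice lie below every WT mouse in each.

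*Isg15*, the modifier itself, was at 3.90, 0.970 and 5.25 CPM in WT 1 to 3. The *Tlr7* KO mice had 1.34, 3.83, 1.63, 1.40 and 3.43 CPM, and the *Ifnar1* KO mice had 0.170, 0.523 and 0.209 CPM. Every *Ifnar1* KO mouse lay below every other mouse, whereas the *Tlr7* KO mice lay within the WT range. The *Ifnar1* KO values rest on 5 to 14 counts per mouse. The log2 fold change from WT was -3.51 in *Ifnar1* KO (SE 0.712, adjusted p = 0.0244, quasi-likelihood test of edgeR, adjusted by Benjamini-Hochberg over all genes tested, as for every adjusted p here). The *Tlr7* KO value was -0.57, with a 95% confidence interval of -1.74 to 0.60 (adjusted p = 0.427), and it ran from -0.097 without WT 3 to -1.001 without WT 2 and was -1.24 with library size only. *Isg15* was 7.59-fold higher in *Tlr7* KO than in *Ifnar1* KO (log2 difference 2.92, SE 0.536, adjusted p = 0.0290).

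*Uba7*, the E1 enzyme that activates ISG15, was at 19.1, 5.78 and 20.4 CPM in WT. The *Tlr7* KO mice had 4.67, 11.5, 4.75, 5.64 and 5.92 CPM, and the *Ifnar1* KO mice had 2.14, 4.75 and 1.01 CPM. In *Tlr7* KO, 3 of the 5 mice lay below WT 2, and the others lay between WT 2 and the remaining WT mice. The fall in *Tlr7* KO had a log2 fold change of -1.23 (SE 0.409, adjusted p = 0.0444), and that in *Ifnar1* KO of -2.55 (SE 0.626, adjusted p = 0.0338). The knockouts overlapped, with a log2 difference of 1.29 (adjusted p = 0.195). The call in *Tlr7* KO was a near one. It was kept in 8 of 17 alternative settings, whose adjusted p ran from 0.00218 without WT 2 to 0.352 with the replicate number as a block, and it was lost without WT 1, WT 3 or *Tlr7* KO 1, 3, 4 or 5 (log2 fold change -0.95 to -1.20).

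*Ube2l6*, the E2 enzyme that carries ISG15, was at 6.23, 2.40 and 6.92 CPM in WT. It was at 2.37, 3.09, 1.86, 1.65 and 3.96 CPM in *Tlr7* KO and at 0.987, 1.87 and 0.545 CPM in *Ifnar1* KO. The highest *Ifnar1* KO mouse lay above the 2 lowest *Tlr7* KO mice, so the knockouts overlapped. *Ube2l6* fell in *Ifnar1* KO (log2 fold change -2.22, SE 0.526, adjusted p = 0.0311). Its log2 fold change in *Tlr7* KO glands was -1.02, with a 95% confidence interval of -1.84 to -0.21, and missed the threshold (adjusted p = 0.0561). The difference between the knockouts was 1.17 (adjusted p = 0.189).

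*Herc6*, the main ISG15 ligase of the mouse, was the member with the lowest level per length in WT, 0.407 ± 0.260 CPM per kilobase of exon (SD, n = 3). Its CPM was 4.48, 1.10 and 5.77 in WT, 1.72, 3.35, 2.32, 2.101 and 3.70 in *Tlr7* KO, and 1.02, 0.934 and 0.419 in *Ifnar1* KO. All *Tlr7* KO mice lay above WT 2 and below the other WT mice, and all *Ifnar1* KO mice lay below both other groups. It fell in *Ifnar1* KO (log2 fold change -2.28, SE 0.617, adjusted p = 0.0423) and was higher in *Tlr7* KO than in *Ifnar1* KO (log2 difference 1.71, SE 0.348, adjusted p = 0.0397). Against WT the *Tlr7* KO value was -0.55 (95% confidence interval -1.55 to 0.45, adjusted p = 0.369). With a mouse left out this value ran from -0.11 without WT 3 to -0.98 without WT 2, where it passed the test (adjusted p = 0.016). *Herc6* shares 1269 exon bases with the predicted gene *Gm45193* on the same strand, so its counts depend on how reads were shared between them.

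*Usp18*, the protease that takes ISG15 off and dampens the interferon receptor, had its highest mean in *Tlr7* KO, as *Parp12* also did but by a smaller margin. It was at 9.34, 1.86 and 5.99 CPM in WT and at 6.93, 16, 8.40, 5.11 and 8.82 CPM in *Tlr7* KO. The *Ifnar1* KO mice had 0.783, 1.61 and 0.251 CPM, on 6 to 43 counts. All *Tlr7* KO mice were above WT 2, 1 was above all WT mice, and the *Ifnar1* KO mice lay below all others. *Usp18* fell in *Ifnar1* KO (log2 fold change -2.72, SE 0.721, adjusted p = 0.0402). Between the knockouts it had the largest difference of the members, 10.1-fold (log2 difference 3.34, SE 0.505, adjusted p = 0.0140). In *Tlr7* KO against WT its log2 fold change was 0.64, with a 95% confidence interval of -0.43 to 1.72 (adjusted p = 0.325), so a rise was not shown. That estimate was 1.17 without WT 1, 0.24 without WT 2 and 0.34 without *Tlr7* KO 2, and with library size only it was 0.015 (adjusted p = 0.983). None of these passed the test.

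*Dtx3l*, the ubiquitin ligase, was at 13.8, 4.09 and 11.8 CPM in WT, 4.55, 8.48, 4.03, 4.28 and 5.12 CPM in *Tlr7* KO, and 1.46, 3.55 and 1.17 CPM in *Ifnar1* KO. Its partner *Parp9* was at 13.2, 5.53 and 13.2 CPM in WT, 5.40, 10.5, 6.19, 5.44 and 6.97 CPM in *Tlr7* KO, and 2.35, 4.19 and 1.26 CPM in *Ifnar1* KO. Within each mouse the pair moved together: log2 CPM of *Dtx3l* minus that of *Parp9* had an SD of 0.213 over the 11 mice. Both fell in *Ifnar1* KO, *Dtx3l* with a log2 fold change of -2.29 (SE 0.554, adjusted p = 0.0326) and *Parp9* with -2.07 (SE 0.479, adjusted p = 0.0296). In *Tlr7* KO *Dtx3l* had -0.91 (adjusted p = 0.0830) and *Parp9* had -0.64 (adjusted p = 0.133). The knockouts did not overlap for either gene, and yet neither difference passed the test, at 1.35 for *Dtx3l* (adjusted p = 0.110) and 1.40 for *Parp9* (adjusted p = 0.0790).

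*Parp12*, a mono-ADP-ribosyltransferase with zinc fingers, had the smallest fold change of the members in each comparison. It was at 15.9, 7.51 and 11.7 CPM in WT, 10.1, 16.2, 10.5, 10.5 and 12.5 CPM in *Tlr7* KO, and 5.86, 7.21 and 3.73 CPM in *Ifnar1* KO. Of the *Tlr7* KO mice 4 lay within the WT range and 1 just above it, and the highest *Ifnar1* KO mouse was just below WT 2. Its log2 fold change in *Tlr7* KO was 0.02 (95% confidence interval -0.50 to 0.55, adjusted p = 0.949), a sign that turned to -0.55 after scaling by library size only, to -0.21 without WT 2 and to -0.11 without *Tlr7* KO 2. In *Ifnar1* KO it was -1.09 (SE 0.321, adjusted p = 0.0530). The knockouts differed by 1.09 (SE 0.221, adjusted p = 0.0394), higher in *Tlr7* KO.

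*Parp14*, a large mono-ADP-ribosyltransferase with macrodomains, was at 30.5, 11.01 and 30.1 CPM in WT. The *Tlr7* KO mice had 9.22, 20.5, 10.2, 9.97 and 10.7 CPM, and the *Ifnar1* KO mice had 2.79, 6.58 and 1.34 CPM. In *Tlr7* KO, 4 of the 5 mice lay just below WT 2 and *Tlr7* KO 2 stood well above it. *Parp14* fell in *Ifnar1* KO (log2 fold change -2.77, SE 0.593, adjusted p = 0.0259). Its value in *Tlr7* KO, -0.99, missed the threshold (95% confidence interval -1.78 to -0.20, adjusted p = 0.0569). The knockouts did not overlap, but the difference of 1.75 was not past the test (adjusted p = 0.0834).

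**Figure D2:**
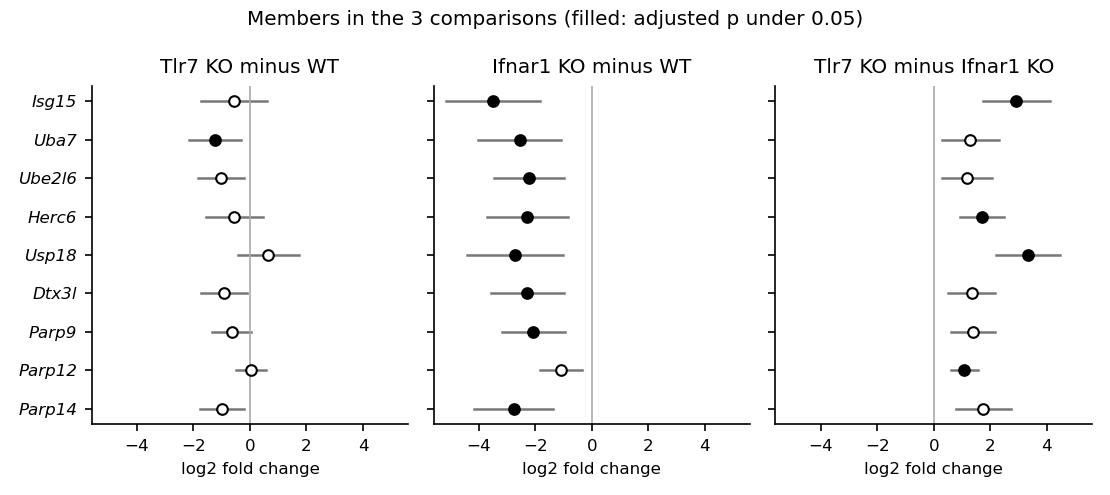
Log2 fold change of each member with its 95% confidence interval in the 3 comparisons, as Tlr7 KO minus WT, Ifnar1 KO minus WT and Tlr7 KO minus Ifnar1 KO. Filled points have an adjusted p under 0.05: 1, 8 and 4 of the 9 members, and all 9 estimates are negative in Ifnar1 KO and positive between the knockouts.

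All 9 members passed the filter on low counts, a sum of at least 30 counts over the WT mice, and were tested. Against WT, 8 of the 9 members were lower in *Ifnar1* KO at an adjusted p under 0.05, where 12.4% of the 13937 genes tested were. The CPM of all 9 did not overlap between these groups, where 21.1% of genes were lower without overlap. The members' median log2 fold change was -2.29, against -0.02 over all genes tested. On all mice, all 9 members and 5235 of the 13937 genes had an unadjusted p under 0.05 in edgeR. This comparison of 3 mice with 3 left little room: with any of WT 1, WT 3, *Ifnar1* KO 1 and *Ifnar1* KO 3 left out no member passed the adjusted threshold in edgeR, although all 9 had an unadjusted p under 0.05 each time. The median log2 fold changes were then -2.16, -2.16, -2.38 and -2.03, and the adjusted p of the members lay between 0.0699 and 0.153. Without those mice the number of genes called among all tested was 13, 104, 0 and 0, and with DESeq2 on all mice 9 members were called.

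Against WT, 1 of the 9 members was lower in *Tlr7* KO, where 17.4% of the 13937 genes tested were, and the CPM of no member was lower without overlap, where 14.2% of genes were. The median log2 fold change of the members was -0.64, against -0.04 over all genes. On all mice, 4 members and 6251 of the 13937 genes had an unadjusted p under 0.05 in edgeR. The count of members lower in *Tlr7* KO depended on single mice. It was 6 without WT 2 (*Uba7*, *Ube2l6*, *Herc6*, *Dtx3l*, *Parp9* and *Parp14*), 4 without *Tlr7* KO 2 (*Uba7*, *Dtx3l*, *Parp9* and *Parp14*), 1 without *Tlr7* KO 5 (*Ube2l6* in place of *Uba7*) and 0 without WT 1, WT 3 or *Tlr7* KO 1, 3 or 4, where 0 to 3 members had an unadjusted p under 0.05 in edgeR. Over all genes tested, 3451 of 13492 were called lower without WT 2 and 2352 of 13937 without *Tlr7* KO 2. DESeq2 called 4 members on all mice, where 2456 of 13937 genes were called lower. With library size as the sole scaling, the median of all genes went from -0.04 to -0.54 and 5 members were called, where 4275 of 13937 genes were called lower. *Isg15*, *Usp18* and *Parp12* were called in none of the 17 alternative settings.

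Between the knockouts, 4 of the 9 members were higher in *Tlr7* KO, where 0.926% of the 13935 genes tested were. The CPM of 7 members did not overlap, where 5.47% of genes were higher in *Tlr7* KO without overlap, and *Uba7* and *Ube2l6* were the members that overlapped. All 9 estimates were positive, with a median of 1.40 against 0.00112 over all genes. All 9 had an unadjusted p under 0.05 in edgeR, as did 2270 of the 13935 genes tested. The count was 9 without *Ifnar1* KO 2, 7 with DESeq2, and 0 to 2 without any other single mouse. It was 0 without *Ifnar1* KO 1, where 7 members had an unadjusted p under 0.05. It was 1 without *Ifnar1* KO 3, *Tlr7* KO 3 or *Tlr7* KO 5 and 2 without *Tlr7* KO 1, 2 or 4. *Usp18* was called in 15 of the 17 alternative settings, with adjusted p from 5.04e-06 to 0.0670, and *Isg15* in 12, with adjusted p from 4.89e-06 to 0.115. *Herc6* was called in 8 of the 17, with adjusted p up to 0.181, and *Parp12* in 7, with adjusted p up to 0.128.

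*Usp18* was the member whose profile stood furthest from those of the others, and it is shown here beside *Uba7* and *Isg15*. The difference of log2 CPM between *Usp18* and *Uba7* within a mouse was -1.03, -1.60 and -1.76 in WT and -1.37, -1.52 and -1.72 in *Ifnar1* KO. In *Tlr7* KO it was 0.56, 0.48, 0.81, -0.14 and 0.57, above every mouse of the other groups. The mean was 0.456 ± 0.357 for the *Tlr7* KO mice (SD, n = 5), against -1.46 ± 0.384 for WT and -1.54 ± 0.177 for *Ifnar1* KO (SD, n = 3 each). *Usp18* minus *Isg15* was 0.772 ± 0.537 in WT, 1.96 ± 0.404 in *Tlr7* KO and 1.16 ± 0.850 in *Ifnar1* KO, again with every *Tlr7* KO mouse above every WT mouse, but overlapping *Ifnar1* KO. These pairs were chosen after their values were seen, so no test is given. Because genes differ in length, the zero of such a difference has no meaning, and only its shift between mice is read.

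**Figure D3:**
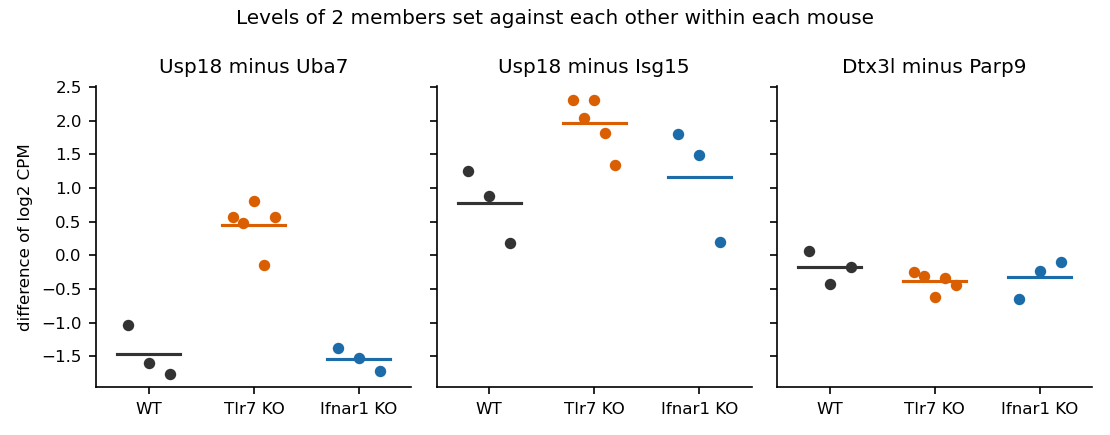
Difference of log2 CPM between 2 members within each mouse (vertical axis, log2 units), with 1 point per mouse and a line at the group mean. For Usp18 minus Uba7 the 5 Tlr7 KO mice lie between -0.14 and 0.81, above all WT and Ifnar1 KO mice, and for Dtx3l minus Parp9 all 11 mice lie between -0.66 and 0.06.

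Across the 11 mice the profiles most alike were those of *Dtx3l* and *Parp9*, whose centred log2 CPM differed by a root mean square of 0.203. *Uba7* and *Parp14* followed at 0.234, and *Usp18* and *Ube2l6* were least alike at 1.08. The genes outside the list that lay nearest to the mean profile of the members, out of 7497 genes averaging 5 CPM or more, were *Bst2* (0.208), *Fcer1g* (0.301), *Ms4a6c* (0.315), *Rtp4* (0.316) and *Mpeg1* (0.319). *Bst2* encodes tetherin, which holds budding virus at the cell surface. Nearest to *Isg15* were *Ifit3* (0.262), *Oasl2* (0.374) and *Lgals3bp* (0.401). *Usp18* had *Oas1a* (0.376), *Rtp4* (0.551) and *Lgals3bp* (0.597) as its nearest genes, and *Parp14* had *Ms4a6c* (0.194), *Slfn2* (0.276) and *Irgm1* (0.289). *Oas1a*, which makes 2′-5′-linked oligoadenylates, moved by -2.91 in *Ifnar1* KO (log2 fold change, adjusted p = 0.0285) and had 0.49 in the *Tlr7* KO mice (adjusted p = 0.241), beside -2.72 and 0.64 for *Usp18*. Such nearness is a description over mice that differ in depth, gland composition and group.

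Per length, *Isg15* was the highest member in WT, at 4.46 ± 2.89 CPM per kilobase, followed by *Parp12* at 2.93 ± 1.05 and *Ube2l6* at 2.60 ± 1.22 (SD, n = 3 each). *Parp14*, *Uba7*, *Parp9*, *Usp18* and *Dtx3l* followed with means of 2.56, 2.26, 2.19, 2.05 and 1.73 CPM per kilobase. From *Isg15* to *Dtx3l*, neighbours in this order differed by less than the larger of their SDs, and *Herc6* at 0.407 CPM per kilobase was the last. In *Tlr7* KO glands *Usp18* was first, at 3.24 ± 1.49 CPM per kilobase (SD, n = 5), beside *Isg15* at 3.08 ± 1.59 and *Parp12* at 2.99 ± 0.641, again within their SD. In *Ifnar1* KO glands *Parp12* led at 1.40 ± 0.440 CPM per kilobase (SD, n = 3), and the other members were at 0.0852 to 0.568.

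Leukocyte genes fell beside the members in *Ifnar1* KO, and in *Tlr7* KO they fell where 1 of the 9 members did. All 5 pan-leukocyte genes (*Ptprc*, *Coro1a*, *Laptm5*, *Cd53* and *Cd52*) and all 6 B cell genes fell in both knockouts, and 7 of 8 T cell genes did so in each. In *Tlr7* KO the median log2 fold changes of the pan-leukocyte, T cell and B cell genes were -1.90, -1.92 and -3.29, against -0.64 for the members, and in *Ifnar1* KO they were -2.84, -2.95 and -4.24, against -2.29. The B cell genes summed to 250, 71.3 and 215 CPM in WT, 5.24 to 43.4 CPM in *Tlr7* KO and 2.30 to 18.3 CPM in *Ifnar1* KO, and in *Ifnar1* KO 3 there were 3 B cell genes at 0. The T cell genes summed to 83.0, 25.6 and 63.1 CPM, 6.003 to 30.1 CPM and 1.72 to 15.5 CPM in the same order, with none at 0. In bulk RNA, fewer cells of a type and less RNA per cell cannot be told apart, and the part of leukocyte content in the members' fall was not tested. Between the knockouts none of the 19 leukocyte, T cell and B cell genes passed the test, 1 had an unadjusted p under 0.05, and the medians of the lists were 0.91, 0.85 and 0.93 on the log2 scale, where the members had 1.09 to 3.34 and single genes of these 3 lists 0.41 to 1.18.

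Macrophage genes summed to 62.6, 32.7 and 52.8 CPM in WT, 37.2 to 45.4 CPM in *Tlr7* KO and 22.3 to 38.0 CPM in *Ifnar1* KO, and none of the 6 was at 0. In *Ifnar1* KO, *Fcgr1* and *Csf1r* fell and *Mertk* rose, and in *Tlr7* KO *Csf1r* fell and *Mertk* rose. Of the dendritic cell genes only *Flt3* was called against WT, lower in both knockouts. All 6 estimates were negative in each knockout, and in edgeR 3 had an unadjusted p under 0.05 in *Tlr7* KO and 5 in *Ifnar1* KO. The sum of the dendritic cell genes was 4.22 to 11.04 CPM in WT, 3.42 to 6.22 CPM in *Tlr7* KO and 2.51 to 3.92 CPM in *Ifnar1* KO, with 2 of 6 genes at 0 in *Ifnar1* KO 3. No macrophage or dendritic cell gene was called between the knockouts in edgeR, where 3 and 1 had an unadjusted p under 0.05. The differences of 3 of them lay within the range of the members, with 1.90 for *Fcgr1* (adjusted p = 0.0708), 1.63 for *Clec9a* (adjusted p = 0.296) and 1.26 for *Xcr1* (adjusted p = 0.449). *Adgre1*, at 0.93 (adjusted p = 0.133), and *Ccr9*, at 0.43 (adjusted p = 0.352), lay below it. *Fcgr1*, *Clec9a*, *Adgre1* and *Ccr9* did not overlap between the knockouts. The part of these cells in the members' differences was not tested.

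Endothelial genes summed to 24.7, 12.95 and 21.9 CPM in WT, 9.40 to 13.5 CPM in *Tlr7* KO and 6.32 to 9.19 CPM in *Ifnar1* KO, with none of the 4 at 0. *Pecam1* and *Cdh5*, which encode junction proteins of endothelium, fell in both knockouts, by 1.32 and 0.72 in *Tlr7* KO (adjusted p = 0.00397 and 0.0417) and by 1.96 and 1.13 in *Ifnar1* KO (adjusted p = 0.0216 and 0.0498). *Kdr* rose in *Tlr7* KO by 0.89 (adjusted p = 0.0435) and had 0.03 in *Ifnar1* KO, and *Tek* was not called in either. The part of endothelial content in the members' levels was not tested. The 5 myoepithelial genes fell in *Tlr7* KO, by 0.67 to 1.19. In *Ifnar1* KO *Krt14* fell by 1.05 (adjusted p = 0.0207), and the other 4 had -0.35 to -0.72 (adjusted p = 0.0518 to 0.0962, each with an unadjusted p under 0.05), and none of the 5 was called between the knockouts in edgeR, where 2 had an unadjusted p under 0.05.

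Mice of unlike genotype with a near-equal leukocyte sum, chosen after their values were seen, can be set side by side. *Ifnar1* KO 2 had a leukocyte sum of 52.1 CPM, and *Tlr7* KO 1, 4 and 5 had 55.8, 47.6 and 51.7 CPM. *Isg15* was 0.523 CPM in *Ifnar1* KO 2 and 1.34, 1.40 and 3.43 CPM in those *Tlr7* KO mice. *Usp18* was 1.61 CPM beside 6.93, 5.11 and 8.82 CPM. *Uba7* was 4.75 CPM beside 4.67, 5.64 and 5.92 CPM, so *Tlr7* KO 1 lay just below *Ifnar1* KO 2. WT 2 and *Tlr7* KO 2 had leukocyte sums of 98.5 and 104 CPM. In that order, macrophage genes summed to 32.7 and 45.4 CPM, dendritic cell genes to 4.22 and 6.22 CPM and T cell genes to 25.6 and 30.1 CPM. B cell genes summed to 71.3 and 43.4 CPM and fat genes to 7.38 and 21.3 CPM. WT 2 was the lowest WT mouse for all 9 members, and *Tlr7* KO 2 was the highest of its group for 7. In the same 2 mice *Isg15* was 0.970 and 3.83 CPM, *Usp18* was 1.86 and 16 CPM, and *Uba7* was 5.78 and 11.5 CPM. These are single mice, and no test is given.

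**Figure D4:**
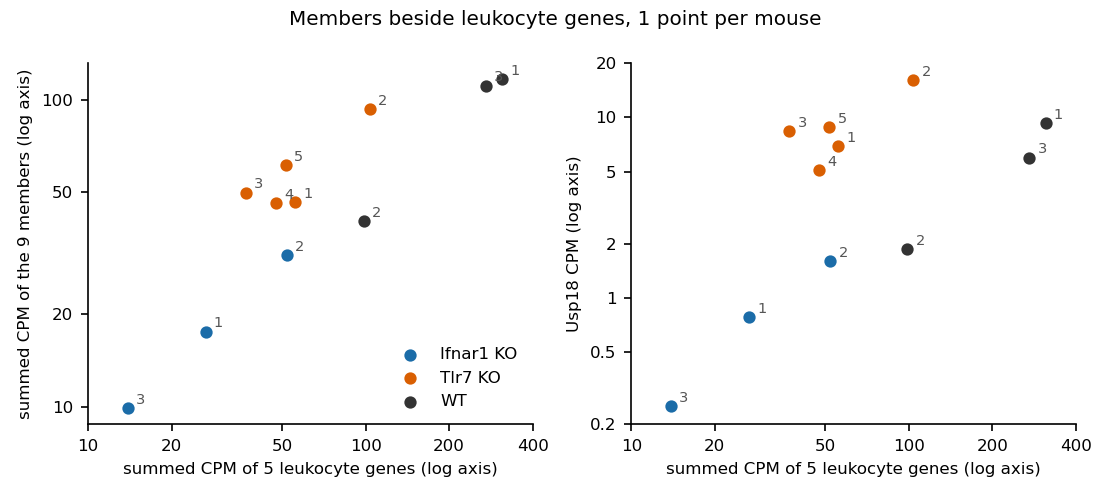
Summed CPM of the 9 members (left) and CPM of Usp18 (right) against the summed CPM of 5 leukocyte genes, 1 point per mouse with its replicate number, all axes log. Usp18 lies between 5.11 and 16 CPM in the Tlr7 KO mice at leukocyte sums of 37.0 to 104 CPM, and at 1.61 CPM in Ifnar1 KO 2 and 1.86 CPM in WT 2, at sums of 52.1 and 98.5 CPM.

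The transcription factors that act on these genes differed between the knockouts in part. *Irf7*, a master regulator of interferon production that is itself induced by interferon, was 23.7 CPM in WT on average and fell in *Ifnar1* KO (log2 fold change -4.08, adjusted p = 0.0207) but not past the test in *Tlr7* KO (-0.40, adjusted p = 0.499). It was higher in *Tlr7* KO than in *Ifnar1* KO by 3.67 (adjusted p = 0.00921). *Irf9* and *Stat2*, which encode subunits of ISGF3, were higher in *Tlr7* KO than in *Ifnar1* KO by 1.45 (adjusted p = 0.0169) and 1.31 (adjusted p = 0.0342). Against WT, *Irf9* fell in *Ifnar1* KO (log2 fold change -1.67, adjusted p = 0.0262), while *Stat2* missed the threshold there (-1.38, adjusted p = 0.0557). In *Tlr7* KO they had -0.19 and -0.05 (adjusted p = 0.509 and 0.928). *Irf1* fell in both knockouts, by 1.08 in *Tlr7* KO (adjusted p = 0.0401) and by 2.25 in *Ifnar1* KO (adjusted p = 0.0282). It was not called between the knockouts.

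Another 54 genes of the ubiquitin-like and ADP-ribose pathways were listed, and 53 were tested. In *Tlr7* KO against WT 11 of them fell and 13 rose, in *Ifnar1* KO 7 fell and 5 rose, and between the knockouts 1 was lower and 1 higher in *Tlr7* KO. These calls were 45.3%, 22.6% and 3.77% of the pathway genes, where 32.8%, 19.2% and 1.79% of all genes tested were called. Of the 13937 genes tested, 2431 fell and 2135 rose in *Tlr7* KO, and 1735 fell and 942 rose in *Ifnar1* KO. The median log2 fold changes of the pathway genes were 0.06, 0.05 and 0.01, against -0.64, -2.29 and 1.40 for the members. In *Ifnar1* KO the pathway count was 0 in edgeR with WT 1, WT 3 or either *Ifnar1* KO 1 or 3 left out, 6 without *Ifnar1* KO 2 and 24 without WT 2, and in *Tlr7* KO it was 13 without WT 1 and 14 without WT 3.

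Of 7 other enzymes that have been named in ISG15 conjugation or removal, *Trim25*, a RING ligase induced by interferon, was the one called between the knockouts. It was at 13.1 ± 5.67 CPM in WT (SD, n = 3), moved by 0.30 on the log2 scale in *Tlr7* KO (adjusted p = 0.427), fell in *Ifnar1* KO (log2 fold change -1.63, adjusted p = 0.0364) and was higher in *Tlr7* KO than in *Ifnar1* KO by 1.90 (adjusted p = 0.00921). The deubiquitinases *Usp14* and *Usp16* rose in both knockouts, by 0.48 and 0.46 in *Tlr7* KO (adjusted p = 0.00407 and 0.00163) and by 0.46 and 0.40 in *Ifnar1* KO (adjusted p = 0.0380 and 0.0421). *Usp5* and *Ube2e2* rose in *Tlr7* KO by 0.20 and 0.55 (adjusted p = 0.0338 and 0.00205). *Arih1*, the ligase with the highest level of this group at 27.6 CPM in WT, had -0.04 and 0.14.

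The E1 enzymes of the other modifiers did not follow *Uba7*. *Uba1*, the main E1 of ubiquitin, rose in both knockouts, by 0.28 in *Tlr7* KO (adjusted p = 0.0252) and by 0.48 in *Ifnar1* KO (adjusted p = 0.0401). *Sae1* and *Nae1*, subunits of the SUMO and NEDD8 E1 enzymes, rose in *Tlr7* KO by 0.20 and 0.35 (adjusted p = 0.0428 and 0.0213). None of the 8 fell in either knockout or was called between them in edgeR, and 1 had an unadjusted p under 0.05 between the knockouts.

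Of 11 ubiquitin and ubiquitin-like modifier genes, *Ubb*, the most abundant at 735 CPM in WT, rose in *Tlr7* KO by 0.47 (adjusted p = 0.0191), and *Ufm1* rose there by 0.55 (adjusted p = 0.00842). *Urm1* and *Fau* fell in *Tlr7* KO by 0.32 and 0.40 (adjusted p = 0.0324 and 0.0178), and *Rps27a*, a ubiquitin fused to a ribosomal protein, fell in *Ifnar1* KO by 0.83 (adjusted p = 0.0485). None was called between the knockouts in edgeR, and 2 had an unadjusted p under 0.05.

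Among relatives of the E2 and E3 enzymes, *Herc3*, a paralogue of *Herc6*, was at 4.04 CPM in WT and fell in *Tlr7* KO by 2.44 (adjusted p = 0.000862), and it was lower in *Tlr7* KO than in *Ifnar1* KO by 2.21 (adjusted p = 0.00781). In *Ifnar1* KO its log2 fold change was -0.24 (adjusted p = 0.382). *Dtx1*, a deltex ligase known from lymphocytes, fell in both, by 1.99 (adjusted p = 0.0114) and by 2.89 (adjusted p = 0.0219). *Dtx2*, *Dtx3* and *Dtx4* fell in *Tlr7* KO by 0.42, 1.47 and 0.54 (adjusted p = 0.0356, 0.0121 and 0.00907), and their log2 fold changes in *Ifnar1* KO were -0.22, -1.52 and -0.58 (adjusted p = 0.321, 0.0521 and 0.0743). *Ube2l3*, the closest relative of *Ube2l6*, had 0.18 and 0.21 (adjusted p = 0.106 and 0.217), and *Herc2*, an abundant family member at 32.8 CPM in WT, had 0.14 and 0.05.

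The remaining PARP genes divided between falls, rises and no call. *Parp3*, *Parp4* and *Parp8* fell in *Tlr7* KO by 1.49, 0.88 and 1.48 (adjusted p = 0.0145, 0.0224 and 0.00671) and also in *Ifnar1* KO, with log2 fold changes of -2.098, -0.98 and -1.84 (adjusted p = 0.0230, 0.0346 and 0.0309). *Parp1*, the main DNA damage PARP, rose in both, by 0.34 (adjusted p = 0.0257) and by 0.55 (adjusted p = 0.0235). *Parp6* fell in *Tlr7* KO by 0.36 (adjusted p = 0.0167) and had -0.38 in *Ifnar1* KO (adjusted p = 0.101). *Tnks2*, a tankyrase at 36.1 CPM in WT, had 0.12 and 0.10. Of the 4 further PARP genes known to respond to interferon, *Parp10* fell in *Ifnar1* KO by 2.01 (adjusted p = 0.0367), and *Parp11*, *Zc3hav1* and *Tiparp* were not called in any comparison, *Zc3hav1* being the most abundant at 21.1 CPM in WT. None of these 13 PARP genes was called between the knockouts in edgeR, and 3 had an unadjusted p under 0.05. None of 5 enzymes tested that remove ADP-ribose was called in any comparison, with *Macrod1* and *Oard1* the most abundant at 19.9 and 18.6 CPM in WT, and 1 had an unadjusted p under 0.05 in each comparison with WT.

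**Figure D5:**
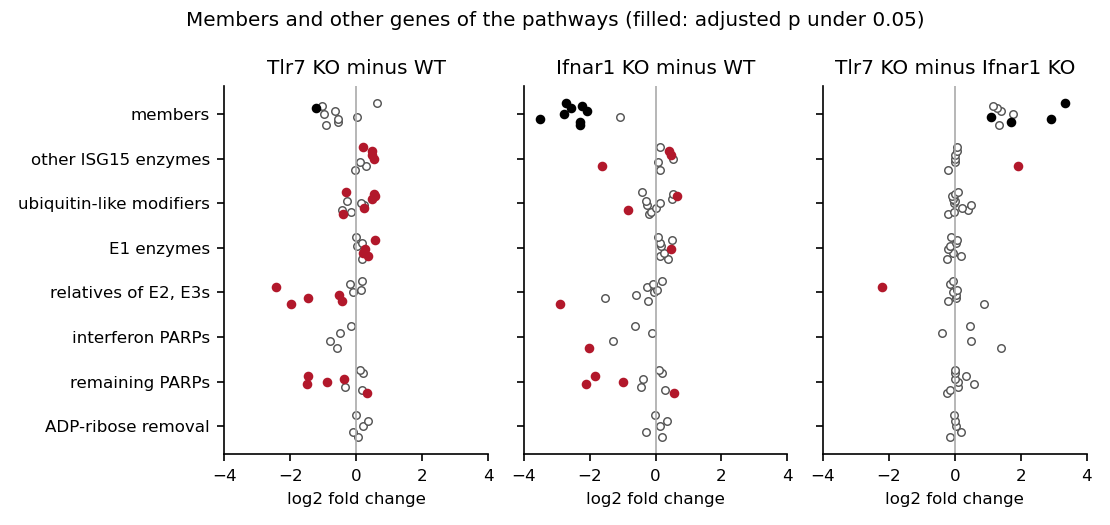
Log2 fold change (horizontal axis) of the 9 members and of 53 other genes of the pathways in 7 lists, 1 point per gene, in the 3 comparisons. Filled points have an adjusted p under 0.05, and between the knockouts 4 members, Trim25 (1.90) and Herc3 (-2.21) are filled.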

How the data were processed

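The authors quantified reads with salmon 0.9.1 in bcbio 1.0.8 and used tximport to obtain gene-level values. The deposited table of 19058 genes holds these estimated counts as whole numbers, and 485 of its rows carry no gene symbol and stayed in the fits by their identifier. It is named as normalized, but its column totals differ as unscaled libraries do, so it was used as un-normalized estimated (expected) counts. A second table that the authors deposited, with counts after HISAT2 2.1.0 on mm10, served as an alternative, and 1 of its columns, named as a further *Ifnar1* KO mouse, matched no sample and was not used. The authors set aside an *Ifnar1* KO mouse that resembled WT before their analysis, and whether this column holds it is not given in the sources used here. The tool that counted those reads is not given in the sources used here.

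In R 4.3.3, edgeR 4.0.16 (TMM, glmQLFit, glmQLFTest) was fitted separately to WT and *Tlr7* KO, WT and *Ifnar1* KO, and both knockouts, on genes with at least 30 counts summed over the WT mice. P-values are two-sided and adjusted by Benjamini-Hochberg over all genes tested, with a threshold of 0.05, and cover the spread between mice. CPM per kilobase uses exon lengths of GENCODE M21, and log2 CPM a prior count of 2. Other genes were named where called in a comparison or among the 2 most abundant of a list. The members and lists were chosen with earlier results of these data known. Alternatives were DESeq2 1.42.0, other scalings and filters, a single fit, the second table, the replicate number as a block, each mouse left out and, chosen after seeing the data, edgeR's robust option. Some genes of the fixed lists are not reported here by name but stand in the lists' counts.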

Additional observations from a re-analysis of the deposited data

Results flagged for a closer look

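In the *Tlr7* KO group, a mouse lay far above the other 4 for 3 of the 9 members, by the gap to the nearest mouse over the range of the group (Dixon's test, critical value 0.71 for 5 mice). It was *Tlr7* KO 2 each time. *Uba7* was at 11.48 CPM there and at 4.67 to 5.92 CPM in the others (ratio 0.817). *Dtx3l* was at 8.48 CPM beside 4.03 to 5.12 CPM (ratio 0.754), and *Parp14* at 20.53 CPM beside 9.22 to 10.7 CPM (ratio 0.872). Chance flags about 1 group in 20, and the members are not independent of each other. The same mouse had the highest leukocyte sum of its group, 104 CPM beside 37.0 to 55.8 CPM. It also had the highest sum of 4 fat genes, 21.3 CPM beside 4.94 to 9.60 CPM. The part of either in the members' levels was not tested. WT 2, the lowest WT mouse for all 9 members, could not be examined in this way, since groups of 3 were not tested.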

How the results depend on the processing

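Members kept their direction in every alternative except *Parp12* in *Tlr7* KO, whose log2 fold change of 0.02 became -0.55 with library size only and -0.21 to 0.31 with a mouse left out (-0.21 without WT 2, -0.11 without *Tlr7* KO 2). The cause of each shift in calls below was not tested. Against WT, 1 member called in *Tlr7* KO became 4 with DESeq2, 5 with library size only, 2 in the second table and 0 in a single fit, with robust dispersions or at an adjusted p under 0.01, and 0 to 6 with a mouse left out. In *Ifnar1* KO, 8 became 0 at 0.01 and 0 to 9 with a mouse left out. Between the knockouts, 4 became 7 with DESeq2, 2 with library size only or robust dispersions, 1 in a single fit, 0 at 0.01 and 0 to 9 with a mouse left out.

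Over all genes, 4566 calls in *Tlr7* KO became 1970 at 0.01 and 2601 to 6595 with a mouse left out. In *Ifnar1* KO, 2677 became 1 at 0.01, 1340 with library size only, 5124 in a single fit and 0 to 4643 with a mouse left out. Between the knockouts, 250 became 577 with DESeq2, 93 in a single fit, 30 at 0.01 and 85 to 877 with a mouse left out. Of the other pathway genes, 24 called in *Tlr7* KO became 9 at 0.01 and 13 to 34 with a mouse left out. In *Ifnar1* KO, 12 became 6 with library size only, 24 in a single fit, 0 at 0.01 and 0 to 24 with a mouse left out, and between the knockouts 2 became 5 with DESeq2 and 2 to 3 with a mouse left out.

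The replicate numbers did not pair the knockout mice with the WT mice, where deviations of same-numbered mice correlated at -0.44 to 0.0305. Between the knockouts these correlations were 0.0641 to 0.34. The mice share only a number. With the replicate block, genes called numbered 14, 0 and 502 in the 3 comparisons, members 0, 0 and 9 and other pathway genes 0, 0 and 4. Between the knockouts all 3 *Ifnar1* KO mice correlated best with the *Tlr7* KO mouse of their own number. Of the 3 WT mice, 0 did so with either knockout. The log2 fold changes of members under the block were -1.12 to 0.94, -3.31 to -1.08 and 1.14 to 3.59. Precision was limited by 3 mice in 2 of the groups and, for *Isg15* and *Usp18* in *Ifnar1* KO, by as few as 5 and 6 counts per mouse.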
